A study of Mus musculus with 4 samples.

Results

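The genes of the Wnt pathway described here are the ligands, the Frizzled receptors, the secreted inhibitors and the main mediators inside the cell or at its membrane. They were chosen by symbol alone, as every listed Wnt, Fzd, Sfrp and Dkk gene with a plain number and 15 further named genes (of which Tcf7l1 is not listed under that symbol), and 51 of the 20207 genes in the tables met this rule. They were 19 Wnt ligands, 10 Frizzled receptors, 10 secreted inhibitors and 12 other mediators. Their RNA was measured by sequencing in adipocyte precursor cells, the adipose progenitors that give rise to fat cells, which were sorted fresh as Sca1+ CD45- CD31- cells from C57BL/6 adipose tissue. Of the 4 libraries, 2 were from wild-type (WT) littermates, WT 1 and WT 2, and 2 from mice labelled as knockouts of the circadian gene Per3, Per3 KO 1 and Per3 KO 2. The mice were young, and RNA was taken at zeitgeber time 2, counted in hours from lights on. The labels give neither the allele, the sex, the fat depot nor the number of mice in a library, and they leave unsaid if the replicates are separate animals, so the p-values reflect a spread between samples that may be technical. Values for a pair of libraries are given with replicate 1 before replicate 2.

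Wnt proteins are secreted lipid-modified ligands that bind Frizzled receptors. With the co-receptors Lrp5 or Lrp6 they keep β-catenin (Ctnnb1) from being destroyed by a complex built on Axin, and β-catenin then switches on target genes with the TCF and LEF factors. Other Wnt ligands, such as Wnt5a, mostly act through routes that do not need β-catenin. Canonical Wnt signalling is known to hold back adipocyte differentiation, and Wnt10b is the ligand best known for this in mouse preadipocytes.

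The levels of the gate's genes and of the labelled gene were read first. Total gene reads ran from 27950724 in WT 2 to 64964300 in Per3 KO 2. Per3 had 121 and 170 reads in the WT pair and 193 and 768 in the KO-labelled pair, so the whole-gene count was not reduced under the knockout label, and the Per3 KO libraries are called KO-labelled from here on. The labels do not name the altered part of the gene, so this count does not check a deletion within it. Ly6a, which encodes Sca1, stood between 1533 and 6980 RPKM (reads scaled by transcript length and library size), with the highest value in WT 2, and the stromal receptor gene Pdgfra between 15.2 and 41.1 RPKM. Ptprc, which encodes CD45, had 0 to 50 reads and Pecam1, which encodes CD31, 79 to 378. The summed RPKM of 6 hepatocyte genes, all with reads in every library, was 184 and 29.8 in the WT pair and 0.394 and 1051 in the KO-labelled pair, and that of 7 skeletal muscle genes, also with reads in every library, was 39.4, 61.1, 16.4 and 17.3 in the same order. Their part in the values below was not tested.

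To show the regulatory sequence at the genes that stand out below, the 250 bases before the annotated start are printed for the most abundant ligand (Wnt2), the most abundant member (Sfrp2), an abundant ligand with a match to the TCF/LEF letters (Wnt11) and the usual reporter of canonical signalling (Axin2). The sequences are from RefSeq on build GRCm38.p6, 5′ to 3′ on the gene's strand, with a match to CTTTGAT or, read from the other strand, ATCAAAG in capitals.
Wnt2 (chr6:18030446-18030695, minus strand): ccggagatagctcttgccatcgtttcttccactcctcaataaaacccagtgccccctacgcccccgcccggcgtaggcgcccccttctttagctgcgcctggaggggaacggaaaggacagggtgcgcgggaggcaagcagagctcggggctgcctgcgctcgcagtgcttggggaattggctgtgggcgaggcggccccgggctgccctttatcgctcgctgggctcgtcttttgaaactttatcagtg
Sfrp2 (chr3:83766071-83766320, plus strand): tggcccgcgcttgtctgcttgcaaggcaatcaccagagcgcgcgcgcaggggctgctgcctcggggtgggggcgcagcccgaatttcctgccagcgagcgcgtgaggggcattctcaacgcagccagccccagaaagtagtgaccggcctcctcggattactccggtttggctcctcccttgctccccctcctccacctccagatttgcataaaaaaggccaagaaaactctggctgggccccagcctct
Wnt11 (chr7:98834862-98835111, plus strand): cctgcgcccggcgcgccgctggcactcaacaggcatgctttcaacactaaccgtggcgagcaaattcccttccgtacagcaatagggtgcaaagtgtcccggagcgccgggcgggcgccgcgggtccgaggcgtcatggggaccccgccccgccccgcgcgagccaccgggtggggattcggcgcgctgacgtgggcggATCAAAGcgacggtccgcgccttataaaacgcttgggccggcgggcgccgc
Axin2 (chr11:108920099-108920348, plus strand): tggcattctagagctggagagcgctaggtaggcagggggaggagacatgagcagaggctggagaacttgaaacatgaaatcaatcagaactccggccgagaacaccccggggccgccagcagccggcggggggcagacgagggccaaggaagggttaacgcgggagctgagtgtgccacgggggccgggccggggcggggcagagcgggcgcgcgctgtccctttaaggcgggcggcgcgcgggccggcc
Of 52 symbols looked up, 35 had an entry, with 45 starts in all. A match lay before 2 of these 45 starts, or 4.44%, at the start of Wnt11 shown here, 1 of its 2 starts, with its first base 51 bases before the start, and at 1 of the 3 starts of Wnt5b with its first base 71 bases before it. Among all 32851 windows of the same length the share was 3.21%. These letters are not in the windows of Wnt2, Sfrp2 and Axin2 shown.

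Among the ligands, Wnt2, which can signal through β-catenin, stood far above the rest in every library. Its level was 29.4 and 17.3 RPKM in the WT pair and 33.3 and 45.2 in the KO-labelled pair, which made 80.4%, 63.0%, 76.0% and 83.5% of the summed ligand RPKM. Next came Wnt5a, the main ligand of the β-catenin-independent route, at 3.62, 3.70, 4.46 and 4.58 RPKM in the same order. Wnt11, a ligand of the same kind, was at 1.39, 1.97, 2.55 and 1.46 RPKM. Wnt5b, the close paralogue of Wnt5a, was at 1.05, 2.64, 2.13 and 1.501 RPKM. The order of Wnt11 and Wnt5b changed between libraries, while Wnt2 and Wnt5a ranked first and second in all 4. These 4 ligands together held 93.3% to 97.5% of ligand RPKM, and the other 15 had a mean below 1 RPKM.

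Wnt2 (mm9 chromosome 6, 17938940 to 17980445) had groups that did not overlap, as did 26.0% of all genes tested. Of the 8 tested ligands, 2 were higher in both KO-labelled libraries, 1 was lower and 5 overlapped. In CPM (counts scaled by library size, here with TMM factors), Wnt2 was at 110 and 90.2 in the WT pair and 125 and 161 in the KO-labelled pair. Both KO-labelled libraries were above both WT libraries, and the log2 fold change was 0.51 ± 0.51 (SE), or 0.31 without Per3 KO 2. That change did not pass edgeR's quasi-likelihood test (adjusted p = 1.00), as was so for every Wnt gene tested. In bulk RNA, fewer cells of a type and less RNA per cell cannot be told apart. Wnt5a had the smallest standard error of the tested ligands, at 27.4, 39.0, 33.8 and 32.9 CPM, with a log2 fold change of 0.01 ± 0.48 (SE). Its CPM values overlapped between the groups, while in the deposited RPKM both KO-labelled libraries were above both WT libraries. Wnt11 had a log2 fold change of -0.07 ± 0.71 and Wnt5b of -0.41 ± 0.81 (SE), with overlapping groups in both.

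Wnt10b, the ligand linked to the block of adipogenesis, was scarce and split within both groups. It had 14 and 148 reads in the WT pair and 71 and 0.908 in the KO-labelled pair, or 0.365, 6.36, 1.71 and 0.0137 CPM. The higher WT library was 12.5-fold above the lower in RPKM, and the lower KO-labelled library was under the floor of 3 reads. The log2 fold change was -1.96 ± 2.15 (SE) and became 1.23 without WT 2. Wnt9a and Wnt2b were low but had groups that did not overlap. Wnt9a, at 4.25, 5.37, 2.66 and 2.22 CPM, was lower in both KO-labelled libraries, with a log2 fold change of -0.98 ± 0.97 (SE). Wnt2b, the paralogue of Wnt2, was higher in both, at 15 and 7 reads in the WT pair and 50 and 65 in the KO-labelled pair (log2 fold change 1.59 ± 1.80, SE).

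Of the 19 ligands, 5 had no read in any library, namely Wnt6, Wnt7a, Wnt7b, Wnt8a and Wnt8b, and 5 had reads in a single library. Wnt4 showed the sharpest case, with 71 reads in Per3 KO 2 and 0 in the other 3 libraries, against a floor of 3 reads per library that corresponds to 0.0412 CPM in Per3 KO 2 and 0.129 CPM in WT 2. Wnt1, a canonical ligand, had 24.0 reads in Per3 KO 2 and 0 elsewhere. Wnt3a, the classic canonical ligand, had 0.995 reads in WT 1 and none elsewhere, Wnt10a 0.998 in Per3 KO 2 and Wnt9b 1 in Per3 KO 1. Wnt3 had 15 and 2.97 reads in the KO-labelled pair and 0 in both WT libraries, too few to be tested. Wnt16, at 24, 0, 28 and 39.9 reads, had a log2 fold change of 0.94 ± 2.30 (SE). None of these ligands exceeded 0.527 RPKM in any library.

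**Figure D1:**
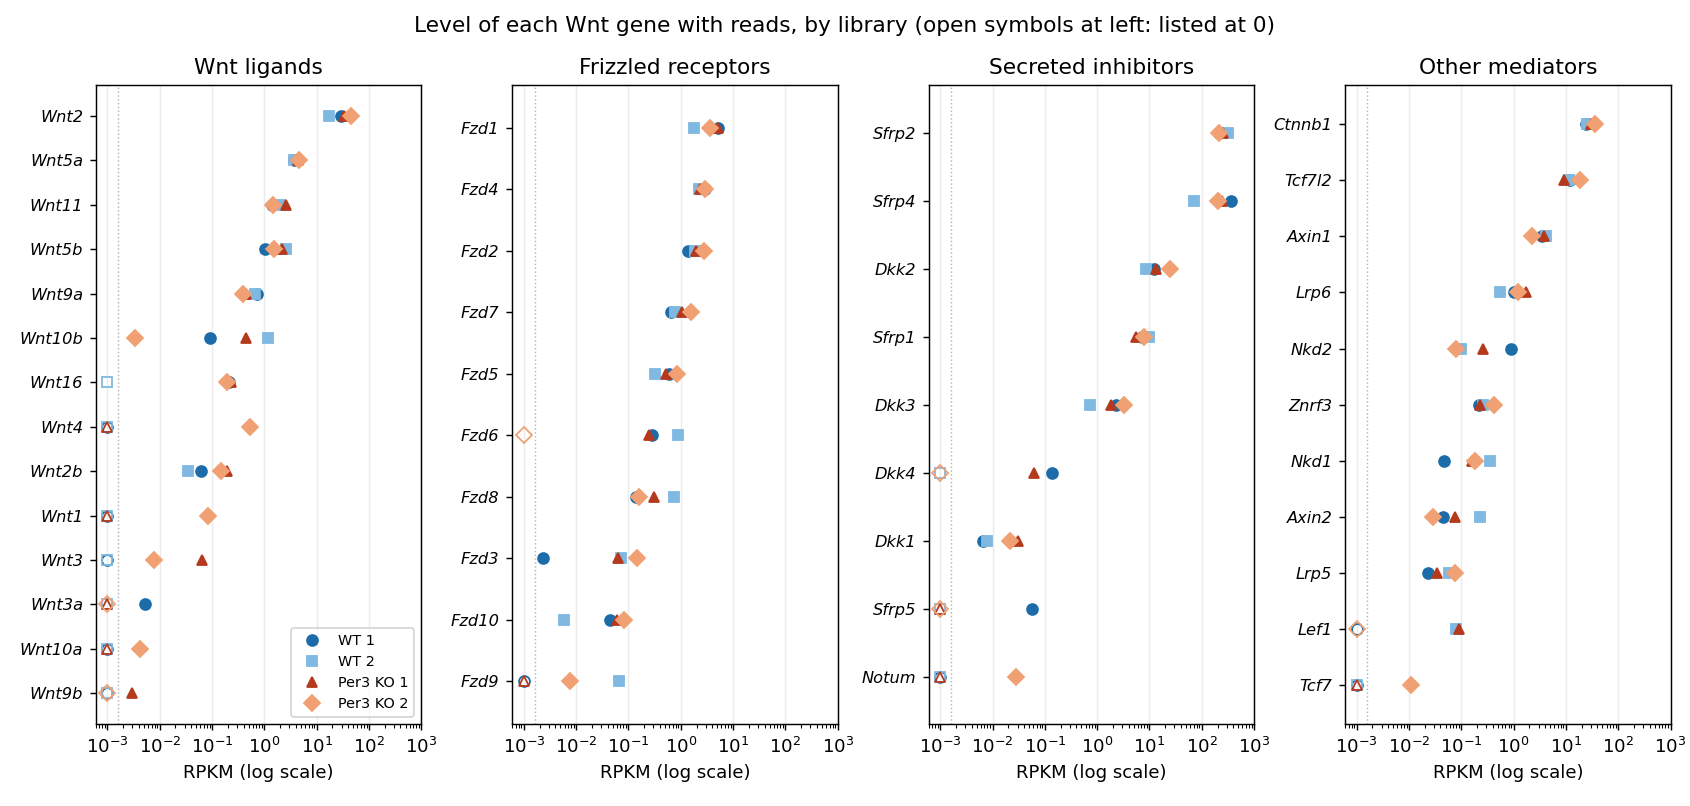
RPKM on a log scale (x axis) of each Wnt gene that had reads (y axis), in panels by role, with 1 symbol per library and open symbols at the left for libraries listed at 0. Sfrp2 and Sfrp4 lie highest, between 70.9 and 367 RPKM, Wnt2 leads the ligands at 17.3 to 45.2 RPKM, and the symbols of genes below 1 RPKM spread widely.

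The Frizzled receptors, which carry the Wnt-binding domain and span the membrane several times, were read at low levels, from a mean of 3.90 RPKM for Fzd1 down to 0.0184 RPKM for Fzd9. Fzd1 led with 5.09 and 1.81 RPKM in the WT pair and 5.10 and 3.59 in the KO-labelled pair. Fzd4, which also binds the ligand norrin, followed at 2.95, 2.23, 2.29 and 2.94 RPKM. Fzd2 was at 1.36, 1.87, 1.98 and 2.77 RPKM and Fzd7, its close paralogue, at 0.652, 0.778, 1.04 and 1.54 RPKM. No receptor led in all libraries, since Fzd4 was above Fzd1 in WT 2, and the levels of Fzd1, Fzd4 and Fzd2 overlapped across libraries. The 6 other Frizzled genes had a mean below 1 RPKM, and none of the 10 was without reads in all libraries.

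Fold changes of the abundant receptors were smaller than their standard errors. Fzd4 (chromosome 7, 96552876 to 96558620) was at 19.3, 20.3, 14.996 and 18.2 CPM, lower in both KO-labelled libraries by CPM and overlapping by RPKM, with a log2 fold change of -0.25 ± 0.53 (SE). Fzd1 had a log2 fold change of 0.16 ± 0.56, Fzd2 of 0.22 ± 0.62 and Fzd7 of 0.53 ± 0.68 (SE), all with CPM values that overlapped between groups. The value for Fzd7 became 0.21 without WT 1 and 0.95 without WT 2. Fzd2 and Fzd7 were above both WT libraries in the deposited RPKM of both KO-labelled libraries. Fzd6, a receptor of the β-catenin-independent route, had the smallest unadjusted p of all tested members. It had 77 and 211 reads in the WT pair and 74 and 0 in the KO-labelled pair, or 2.01, 9.07, 1.79 and 0 CPM. Both KO-labelled values were below both WT values, but Per3 KO 1 lay close to WT 1. The log2 fold change was -2.64 ± 2.08 (SE; edgeR adjusted p = 1.00). It was -1.18 without WT 2, -1.63 without Per3 KO 2 and -4.63 with the replicate number as a block. Without Per3 KO 1, where the single KO-labelled library has 0 reads, the fitted value was -10.99 (edgeR adjusted p = 1.00) and depends on the prior count. Fzd3 had 2, 52, 60 and 229 reads, Fzd5 271.9, 125, 260 and 702.9, Fzd8 32, 141, 77 and 65, and Fzd10 9, 1, 13 and 30. Of these 4, Fzd10 had both KO-labelled libraries above both WT libraries, with a log2 fold change of 1.34 ± 2.18 (SE) that became 0.63 without WT 2 and 3.005 without WT 1. Fzd9 had 0, 8, 0 and 1.96 reads and was not tested.

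The co-receptors differed in level. Lrp6 (chromosome 6, 134400435 to 134516931) was at 1.00 and 0.555 RPKM in the WT pair and 1.70 and 1.196 in the KO-labelled pair, while Lrp5, the other co-receptor, stood between 0.0228 and 0.0774 RPKM. Lrp6 was above Lrp5 in every library. In CPM Lrp6 was at 9.63, 7.44, 16.3 and 10.9, with both KO-labelled libraries above both WT libraries, and its log2 fold change of 0.67 ± 0.63 (SE; adjusted p = 1.00) did not pass the edgeR test and became 0.34 without Per3 KO 1. Lrp5, at 8, 17, 13 and 49 reads, had a log2 fold change of 0.08 ± 1.94 (SE). Znrf3 and Rnf43 encode ubiquitin ligases that clear Frizzled receptors from the cell surface. Znrf3 had 92.0, 96, 107 and 329 reads, with a log2 fold change of 0.12 ± 1.04 (SE), and Rnf43 had no read in any library.

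The secreted inhibitors held the most abundant members of all. Sfrp proteins are soluble relatives of Frizzled that bind Wnt ligands outside the cell, and Dkk proteins bind the Lrp co-receptors. Sfrp2 (chromosome 3, 83570243 to 83578235) was at 216 and 315 RPKM in the WT pair and 257 and 214 in the KO-labelled pair, and Sfrp4 (chromosome 13, 19715044 to 19724690) at 367, 70.9, 239 and 207 RPKM. Together they made 92.2% to 96.4% of the RPKM of this class. WT 2 was the library with the highest Sfrp2 and the lowest Sfrp4, so that the ratio of Sfrp2 to Sfrp4 RPKM was 4.44 there, against 0.588 in WT 1 and 1.08 and 1.04 in the KO-labelled pair. The ratios of the WT pair lay on either side of those of the KO-labelled pair. Summed inhibitor RPKM exceeded summed ligand RPKM by 16.5-fold and 14.8-fold in the WT pair and by 11.8-fold and 8.44-fold in the KO-labelled pair. Both KO-labelled ratios were below both WT ratios, as a description of RNA sums with no test. The inhibitor sums overlapped, at 604 and 405 RPKM in the WT pair and 516 and 457 in the KO-labelled pair. The ligand sums, mostly Wnt2, were 36.6, 27.4, 43.8 and 54.1 RPKM in the same order. By RPKM the groups were apart for 27.9% of all genes tested, each taken singly. No such share was worked out for ratios of sums.

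None of the tested inhibitors passed the edgeR test. Sfrp2 was at 765, 1555, 911 and 721 CPM, with a log2 fold change of -0.51 ± 0.67 (SE) that became 0.10 without WT 2. Sfrp4 was at 1141.5, 307, 743 and 610 CPM, with a log2 fold change of -0.10 ± 0.76 (SE), and it became 1.14 without WT 1 and -0.75 without WT 2. Both KO-labelled libraries of Sfrp4 lay between the WT libraries. Sfrp1, at 54.6, 108, 43.3 and 58.7 CPM, had a log2 fold change of -0.67 ± 0.54 (SE), which became -0.09 without WT 2 and -1.07 without WT 1. Sfrp5, an inhibitor known from fat, had 7 reads in WT 1 and 0 in the other libraries. Frzb, an Sfrp relative also named Sfrp3, had none in all 4, and Notum, an enzyme that removes the lipid from Wnt proteins, had 7 reads in Per3 KO 2 alone.

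Dkk2 (chromosome 3, 131748256 to 131843266) was the leading Dkk gene and one of the members whose groups did not overlap. It was at 12.0 and 8.42 RPKM in the WT pair and 13.1 and 24.2 in the KO-labelled pair, or 78.8, 77.0, 86.0 and 151 CPM. Per3 KO 1 lay just above the WT pair and Per3 KO 2 well above it. The log2 fold change was 0.60 ± 0.52 (SE; edgeR adjusted p = 1.00), and 0.14 without Per3 KO 2. Dkk3, a family member that is less clearly a Wnt inhibitor, was at 13.4, 5.93, 11.1 and 18.2 CPM, with overlapping groups and a log2 fold change of 0.60 ± 0.68 (SE) that became 0.14 without WT 2 and 1.31 without WT 1. Dkk2 exceeded Dkk3 by 5.35-fold to 11.8-fold in RPKM. Dkk1, the best known Lrp6 antagonist, had 1, 1, 4.98 and 5.98 reads, and Dkk4 had 12, 0, 5.98 and 0, both too few to test.

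**Figure D2:**
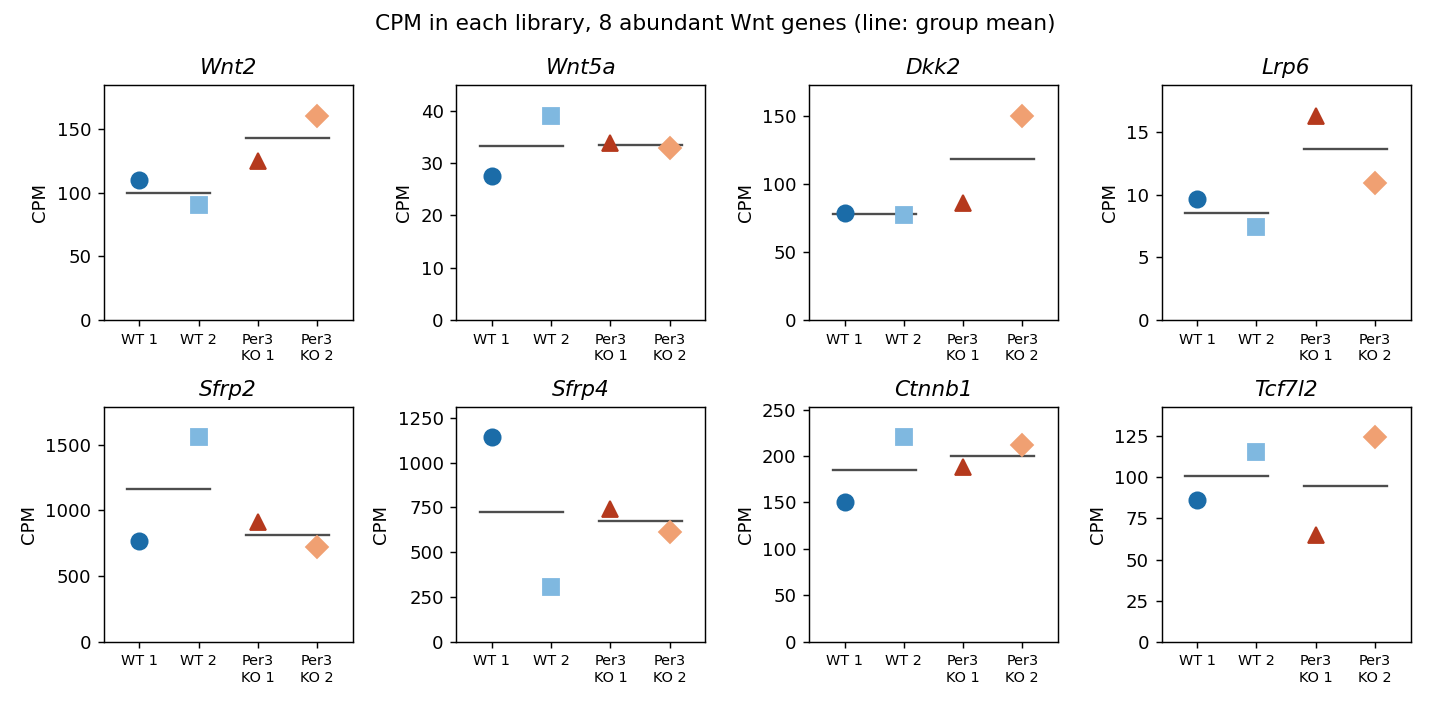
TMM-scaled CPM (y axis, from 0) of 8 Wnt genes with a mean of at least 1 RPKM, in each of the 4 libraries (x axis). A line marks each group mean. The 8 genes were picked by hand and are not the most abundant. Fzd4, not shown, also has a mean above 1 RPKM, and its KO-labelled values lie below both WT values in CPM. The KO-labelled points of Wnt2, Dkk2 and Lrp6 lie above both WT points, while Sfrp4 runs from 307 CPM in WT 2 to 1141.5 CPM in WT 1 with the KO-labelled points between them.

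Inside the cell, Ctnnb1, which encodes β-catenin, was the leading mediator. Its level was 24.0 and 25.1 RPKM in the WT pair and 29.8 and 35.6 in the KO-labelled pair, or 151, 220, 188 and 212 CPM. The groups overlapped by CPM and were apart by RPKM, and the log2 fold change was 0.11 ± 0.53 (SE). Among the factors that carry β-catenin to DNA, Tcf7l2 was at 12.2, 11.7, 9.17 and 18.5 RPKM, with overlapping groups and a log2 fold change of -0.09 ± 0.55 (SE). Lef1 had 0, 11, 16 and 0 reads, and Tcf7 0, 0, 0 and 3. The symbol Tcf7l1 is not listed in the tables, but RefSeq gives Tcf3 as its older name and places it on chromosome 6, where the tables list Tcf3. That row, which is not counted among the 51, was at 4.49, 7.61, 6.99 and 7.58 RPKM, with a log2 fold change of -0.09 ± 0.56 (SE). Tcf7l2 was thus above the Tcf3 row in every library, and Lef1 and Tcf7 were at or near 0.

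Axin1 and Axin2 are scaffolds of the complex that destroys β-catenin, and Axin2 is also a target of the pathway. Axin1 was at 3.51 and 4.22 RPKM in the WT pair and 3.78 and 2.28 in the KO-labelled pair, with overlapping groups and a log2 fold change of -0.66 ± 0.56 (SE) that became -0.23 without WT 2 and -1.14 without Per3 KO 1. Axin2 was far lower, with 13, 56, 24 and 14.9 reads, or 0.0449, 0.229, 0.0767 and 0.0287 RPKM. The library with most Axin2 was WT 2, and the other 3 were within 0.206 to 0.580 CPM. Its log2 fold change was -1.80 ± 1.91 (SE), but 0.21 with WT 2 left out. Nkd1 and Nkd2, which bind Dishevelled and damp the signal, went in different directions between the WT libraries. Nkd1 had 13 and 85 reads in the WT pair and 48 and 89.99 in the KO-labelled pair, and Nkd2 had 192, 18, 62 and 31. WT 2 was above WT 1 for Nkd1 and below it for Nkd2. Their log2 fold changes were -0.73 ± 1.62 and -1.59 ± 1.58 (SE).

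**Figure D3:**
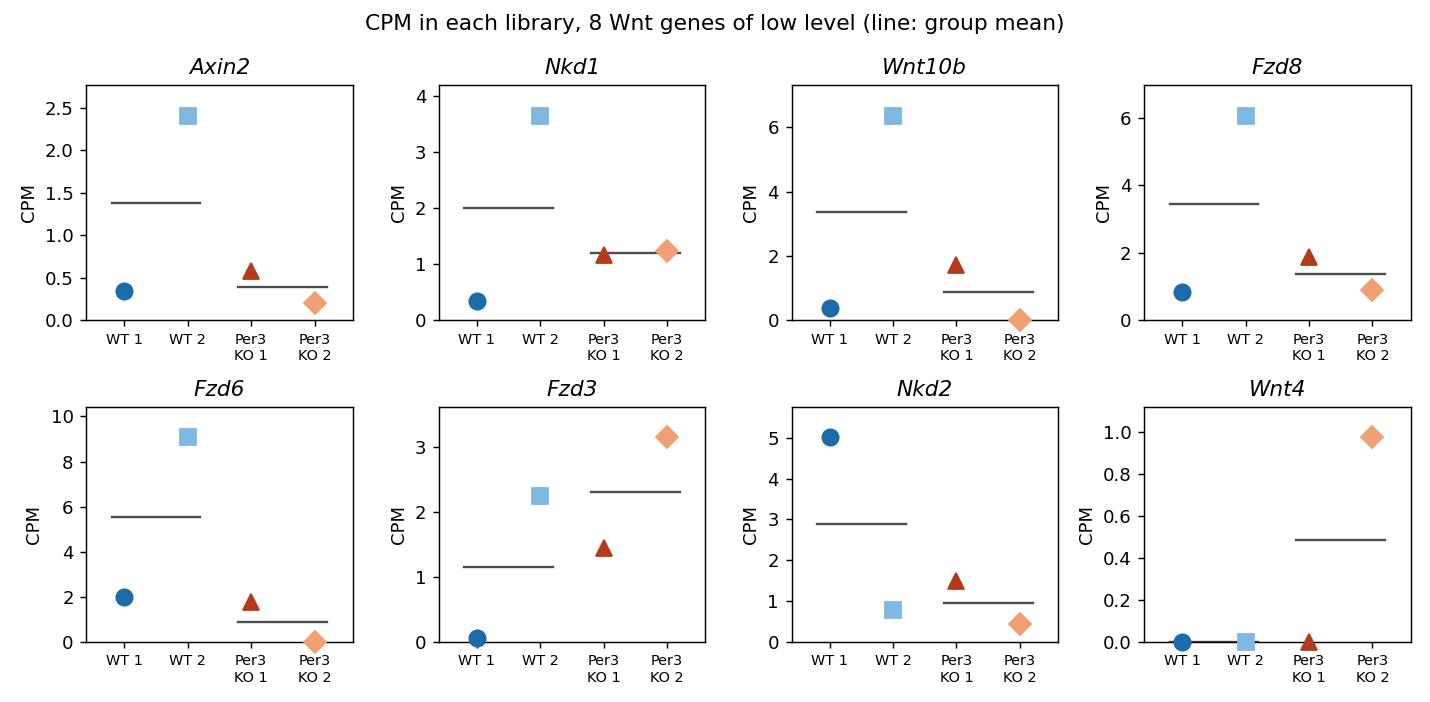
TMM-scaled CPM (y axis, from 0) of 8 Wnt genes of low level in each library (x axis), with a line at each group mean. WT 2 is the highest library for Axin2, Nkd1, Wnt10b, Fzd8 and Fzd6, Per3 KO 2 for Fzd3 and Wnt4, and WT 1 for Nkd2.

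Across the list, 32 of the 51 members had enough reads to be tested, and 0 had an edgeR adjusted p under 0.05, against 0 of 12494 genes overall (0%). DESeq2 called 0 members and 14 genes overall. No member had an unadjusted p under 0.05 in edgeR with all 4 libraries, against 2.06% of all genes tested. The log2 fold change was above 0 for 16 tested members and below 0 for 16, where 50.6% of all genes were above 0. Its median was -0.03, beside 0.01 over all genes tested, and it was smaller than its standard error for 24 of the 32. For 5 tested members both KO-labelled libraries exceeded both WT libraries, namely Wnt2, Wnt2b, Fzd10, Dkk2 and Lrp6, and for 3 they were below, namely Wnt9a, Fzd4 and Fzd6. Over all genes tested the groups were apart for 26.0%, with 14.6% above and 11.5% below, and the members' 8 of 32 is close to that background. In the deposited RPKM, without TMM scaling, the split was 9 above and 2 below, with Ctnnb1, Wnt5a, Fzd2 and Fzd7 added above and Fzd4 no longer below. On that scale 21.2% of all genes tested were above and 6.64% below, or 27.9% apart in all, beside 34.4% of the members. On that scale the median log2 fold change of all genes averaging 1 RPKM or more was 0.27 in limma on log2(RPKM + 0.5), and that of the 17 members among them was 0.40.

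Standard errors were larger at low level. The 17 tested members with a mean of at least 1 RPKM had standard errors of 0.48 to 0.81 and log2 fold changes from -0.67 to 0.67. The 15 tested members below 1 RPKM had standard errors of 0.71 to 2.94 and log2 fold changes from -2.64 to 1.59. The WT pair differed by a median of 1.42-fold in RPKM for the first kind and 5.10-fold for the second, and the KO-labelled pair by 1.42-fold and 1.845-fold, leaving out in each pair 2 members of the second kind at 0 in a library. By these medians the wider gap at low level lay mostly in the WT pair. The members left out were Lef1 and Wnt16 in the WT pair and Fzd6 and Lef1 in the KO-labelled pair. The largest ratio was 30.7-fold in the WT pair (Fzd3) and 130-fold in the KO-labelled pair (Wnt10b, with 0.908 reads in Per3 KO 2). WT 2 had the highest CPM for 16 of 32 tested members, beside 31.3% of all genes tested, and WT 1 for 2, beside 24.7%. It also had the lowest CPM for 10 of the 32, where WT 2 was lowest for 36.1% of all genes tested. By RPKM some members were highest in another library, as Ctnnb1 and Wnt5a were in Per3 KO 2. Of the 19 members not tested, 7 had no read in any library and 8 had reads in a single one, which was Per3 KO 2, the deepest library, for 5 of them.

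**Figure D4:**
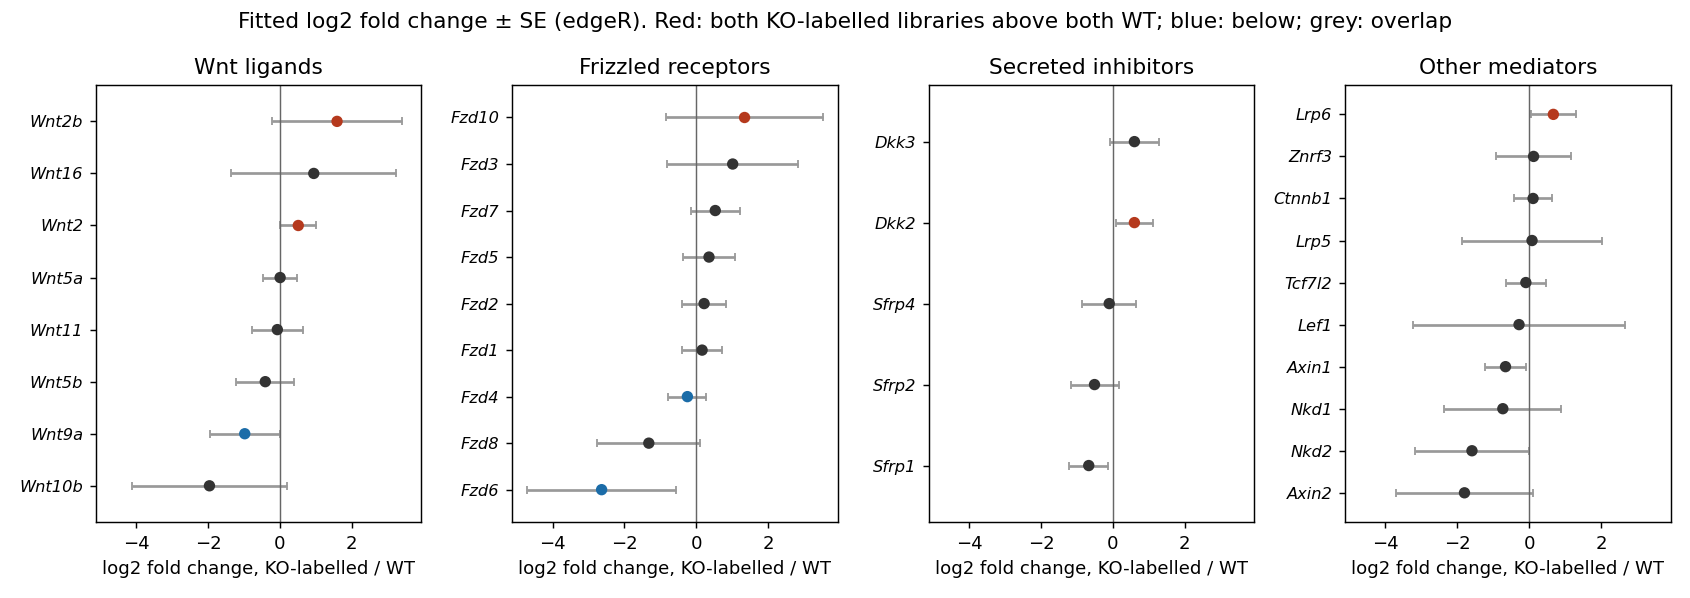
Fitted log2 fold change of KO-labelled against WT libraries (x axis) with its standard error (bars) for the 32 tested members (y axis), in panels by role. The points run from -2.64 for Fzd6 to 1.59 for Wnt2b, red and blue mark the 5 and 3 members whose CPM did not overlap between groups, and none passed the test.

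The other parts of the pathway were read from a list of 64 further genes, of which 52 were tested, 27 with a log2 fold change above 0 and 25 below, with a median of 0.02. None had an adjusted p under 0.05 or an unadjusted p under 0.05 in edgeR with all 4 libraries. DESeq2 on the same libraries gave Lgr5 an unadjusted p of 0.049, and 0 of the 52 passed after adjustment. By CPM the groups were apart for 12 of these 52, 7 above and 5 below, beside 26.0% of all genes tested. Gpr177, the older symbol of Wls, encodes the carrier that brings Wnt proteins to the cell surface, and it was at 43.1 and 11.9 RPKM in the WT pair and 30.0 and 45.9 in the KO-labelled pair. Its log2 fold change was 0.30 ± 0.63 (SE), with WT 2 below the other 3 libraries. Myc, a target of many pathways, was at 111, 29.9, 39.3 and 100 RPKM and was split within both groups. The kinase genes Csnk1d, at 15.9, 9.74, 18.7 and 24.5 RPKM, and Csnk1a1, at 13.8, 10.7, 16.9 and 22.1 RPKM, had both KO-labelled libraries above both WT libraries, with log2 fold changes of 0.53 ± 0.50 and 0.40 ± 0.47 (SE). The corepressor gene Aes was at 15.6 to 18.9 RPKM and the Wnt-binding receptor gene Ryk at 6.12 to 7.65 RPKM.

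Lgr5, a receptor for R-spondins that is itself a Wnt target in the intestine, had the smallest unadjusted p of this list. It was at 9.03 and 10.2 CPM in the WT pair and 3.91 and 1.70 in the KO-labelled pair. Both KO-labelled libraries were below both WT libraries, and the log2 fold change was -1.78 ± 0.81 (SE; edgeR adjusted p = 1.00). The remaining genes by p were Apc2 (log2 fold change -2.44 ± 1.72), the polarity gene Prickle1 (1.35 ± 1.02), the Wnt5a receptor Ror2 (1.14 ± 0.87), the receptor antagonist Bambi, a Wnt target known from human cells (-1.25 ± 1.01), the receptor Ptk7 (-2.92 ± 2.38), and the Dishevelled genes Dvl3 (0.88 ± 0.80) and Dvl1 (-0.78 ± 0.72), each with its SE. Ror2 and Prickle1 had both KO-labelled libraries above both WT libraries, and Apc2 and Ptk7 below. Bambi was highest in WT 2, at 22.8 CPM, against 3.16 in WT 1 and 7.73 and 3.16 in the KO-labelled pair. The targets Sp5 and Tnfrsf19 and the secreted inhibitors Wif1 and Sost had no read in any library.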

How the data were processed

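Sorted adipocyte precursors gave 4 RNA libraries, grouped by their titles. Per the labels' protocols, RNA was taken right after the sort and cDNA was primed with oligo-dT. The tables as deposited hold an expected count of reads per gene, not normalised, and an RPKM value scaled by length and library, per the file headers. Counts of 5 or more digits keep 4 significant digits. The submitters' processing notes name STAR 2.4.0, Cufflinks, Cuffdiff 2.2.1 and mm9, with no role for any. Counter, annotation and strand use: not given in the sources used here. Values of overlapping genes and paralogues are therefore uncertain.

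Genes were joined by symbol, and none of the 51 members differed in coordinates between tables. Counts were rounded, filtered with filterByExpr (minimum count 10, total 15), scaled by TMM (factors 1.03 and 0.832 for the WT pair, 1.04 and 1.12 for the KO-labelled pair) and compared with edgeR 4.0.16 in R 4.3.3 (quasi-likelihood test, two-sided, genotype as the only term), with Benjamini-Hochberg adjustment over all 12494 genes tested and a threshold of 0.05. The standard error is the log2 fold change over the square root of F. CPM use the TMM-scaled totals and RPKM are as deposited, so they can order libraries differently. The floor of 3 reads per library reflects counting error alone, because no molecular identifiers mark single molecules. Alternatives used DESeq2 1.42.0, limma 3.58.1 on log2(RPKM + pseudocount), other scalings and filters, a replicate block and each library left out. The steps were tested on simulated data, where recovery of changes was required only at a spread set far below that of these libraries. That requirement does not show what size of change could be found here.

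Members and lists were chosen with earlier results of these data known. Named members were a fixed set of 22 symbols, the 4 highest by RPKM in each role, the 6 smallest p and those of at least 1 RPKM whose groups did not overlap. Of the other Wnt genes they were the 8 smallest p and the 6 highest by RPKM. Further genes were named after their values were seen.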

Additional observations from a re-analysis of the deposited data

How the results depend on the processing

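No member and none of the other Wnt pathway genes had an adjusted p under 0.05 in the main edgeR test or in any alternative that was fitted for them, with or without 1 library. Over all genes the main count of 0 became 14 with DESeq2, 4 with no filter, 1 with limma on log2(RPKM + 0.5), log2(RPKM + 0.1) or log2(RPKM + 1), and 1 to 4 with a library left out. With the replicate number as a block it was 1, and with crossed numbers, chosen after seeing the data, 2. The deviations of same-numbered libraries from their group means were only weakly related across genes (correlation -0.154). Nothing in the labels pairs these libraries, and with the block 0 members passed. The median log2 fold change of the members, -0.03, was 0.40, 0.41 and 0.36 with limma at pseudocounts of 0.5, 0.1 and 1, where the median of all genes was 0.27, 0.31 and 0.23. With a library left out it ran from -0.17 to 0.46, the latter without WT 2.

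Single genes turned in sign under other settings. With limma at pseudocounts of 0.5, 0.1 and 1 the log2 fold change was 0.017, 0.020 and 0.015 for Fzd4, 0.46, 0.46 and 0.46 for Sfrp4, 0.12, 0.12 and 0.12 for Tcf7l2, 0.099, 0.10 and 0.097 for Aes, 0.12, 0.13 and 0.12 for Myc, 0.15, 0.16 and 0.14 for Ryk, 0.18, 0.21 and 0.15 for Wnt11 and 0.058, 0.092 and 0.036 for Wnt5b. In the same limma fits the median of all genes was 0.27, 0.31 and 0.23, and of the genes just named only Sfrp4 lay above it. With the replicate block Sfrp4 was at 0.19 and Nkd1 at 0.081. Wnt5a was at -0.030 with upper-quartile factors, -0.041 with DESeq2 size factors and -0.040 with DESeq2. With a library left out, the sign turned for members whose values ran from -2.76 to 0.21 for Axin2, -0.13 to 0.41 for Ctnnb1, -0.26 to 0.76 for Fzd1, -0.17 to 0.76 for Fzd2, -2.14 to 0.72 for Fzd8, -1.29 to 6.29 for Lef1, -0.57 to 1.24 for Lrp5, -1.60 to 1.82 for Nkd1, -2.76 to 0.31 for Nkd2, -0.93 to 0.097 for Sfrp2, -0.75 to 1.14 for Sfrp4, -0.63 to 0.28 for Tcf7l2, -7.71 to 1.23 for Wnt10b, -0.60 to 0.50 for Wnt11, -0.028 to 7.82 for Wnt16, -0.22 to 0.29 for Wnt5a, -1.04 to 0.76 for Wnt5b and -0.34 to 0.57 for Znrf3. The same held for the other genes of the pathway at -0.54 to 0.21 for Aes, -2.08 to 0.79 for Bambi, -1.44 to 0.49 for Dvl1, -0.22 to 1.155 for Gpr177, -0.96 to 0.70 for Myc and -0.31 to 0.11 for Ryk. The cause was not tested. Of the 32 members tested, 13 kept their sign in every setting run for them, 9 positive and 4 negative. Of these 13, 7 were run in all 13 settings, and 6, below a mean of 1 RPKM, in 9, without the RPKM minimum and limma. With a library left out they ran from -1.14 to -0.23 for Axin1, 0.14 to 0.93 for Dkk2, 0.14 to 1.31 for Dkk3, 0.63 to 3.005 for Fzd10, 0.045 to 5.403 for Fzd3, 0.0071 to 0.61 for Fzd5, -10.99 to -1.18 for Fzd6, 0.21 to 0.95 for Fzd7, 0.34 to 0.93 for Lrp6, -1.07 to -0.092 for Sfrp1, 0.31 to 0.67 for Wnt2, 1.34 to 1.80 for Wnt2b and -1.14 to -0.80 for Wnt9a. The other pathway genes that kept their sign ran from -4.31 to -1.65 for Apc2, 0.24 to 0.53 for Csnk1a1, 0.37 to 0.66 for Csnk1d, 0.25 to 2.06 for Dvl3, -2.52 to -1.30 for Lgr5, 0.69 to 1.99 for Prickle1, -7.98 to -1.99 for Ptk7 and 0.64 to 1.94 for Ror2. Where the library left alone in a group had 0 reads, as for Fzd6 at -10.99, Wnt16 at 7.82, Lef1 at 6.29 and Ptk7 at -7.98, the value depends on the prior count. The -7.71 for Wnt10b rests on Per3 KO 2 alone in its group, with 0.908 reads, under the floor of 3 reads. With a library left out, the single one remaining in its group is taken to vary as the other group does.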
